A study of Mus musculus with 9 samples.

Results

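The locus of Tle3 and Uaca, neighbouring genes on mouse chromosome 9, held 8 of the 3761 CHD7 peaks of the deposited list. A peak was counted when its midpoint fell in the regulatory domain of either gene, that is, from 5 kb upstream to 1 kb downstream of the transcription start site (TSS), extended in both directions to the corresponding basal interval of the next protein-coding gene or by at most 1 Mb. The Tle3 domain contained 7 peaks and the Uaca domain 7 peaks, of which 6 were the same peaks. The genes were chosen by this measured value, the number of peaks in their domains, so the number is a description and carries no test. Peaks are named by their order in the list.

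The cells were wild-type (WT) mouse cells labelled as cardiac progenitors, derived in vitro from embryonic stem cells of C57BL6 mice and collected on day 5 of differentiation into cardiomyocytes. CUT&RUN, which uses an antibody to tether a nuclease at the sites of a chromatin protein and sequences the DNA that is cut free, was carried out with anti-CHD7, with IgG as negative control and on input, with 3 libraries of each kind and 9 in all. All libraries had the same genotype and day, so no condition was compared, and a dish of differentiating stem cells can hold several cell types. The peak list contains no expression values, and the label of the cells was therefore not checked against marker genes.

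The deposited data are 1 list of peak positions for the 3 anti-CHD7 libraries together, kept from peaks seen in more than a single replicate, with no height, count or P-value. Library depth is unknown, no value below has a replicate error, and peaks cannot be ranked by strength. Over the whole list the median peak width was 703 bp, and chromosome 9 carried 249 peaks, or 2.0 per Mb compared with 1.38 per Mb over the 21 chromosomes.

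TLE3 is a corepressor of the Groucho/TLE family. These proteins do not bind DNA themselves and are brought to genes by transcription factors, among them TCF/LEF factors, the nuclear effectors of WNT signalling, and members of the HES and RUNX families. UACA is a protein with ankyrin repeats and a long coiled coil that has been linked to the apoptosome and to the control of cell death. CHD7 is an ATP-dependent chromatin remodeller that has no sequence specificity of its own, occupies many enhancers, and is mutated in CHARGE syndrome.

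The sequences below are parts of 5 of the 8 peaks, read from the plus strand of mm10. They are shown because they hold the 3 peaks with a TCF/LEF match and the peaks richest in GATA matches. Each is a stretch of 300 bases that no other such stretch of its peak exceeds in motif matches, and the matches are in capitals. Other stretches can hold as many. Some matches lie outside the stretch shown, such as the GATA match of peak1921 at chr9:61059335-61059340. In peak1918 and peak1921 the capitals mark the GATA core AGATAA on either strand and, in peak1921, also the caudal core CATAAA. In peak1919, peak1923 and peak1924 they mark the TCF/LEF core (CTTTGAA or CTTTGAT), together with GATA in the first of these and with GATA and the MEIS core TGACAG in the second.
peak1918, chr9:60787483-60787782: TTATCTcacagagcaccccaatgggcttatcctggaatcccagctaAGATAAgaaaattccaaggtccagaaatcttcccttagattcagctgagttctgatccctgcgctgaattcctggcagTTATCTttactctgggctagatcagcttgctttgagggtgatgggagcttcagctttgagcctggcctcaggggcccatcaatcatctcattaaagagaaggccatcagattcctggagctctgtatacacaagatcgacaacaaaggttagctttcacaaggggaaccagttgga
peak1919, chr9:60987800-60988099: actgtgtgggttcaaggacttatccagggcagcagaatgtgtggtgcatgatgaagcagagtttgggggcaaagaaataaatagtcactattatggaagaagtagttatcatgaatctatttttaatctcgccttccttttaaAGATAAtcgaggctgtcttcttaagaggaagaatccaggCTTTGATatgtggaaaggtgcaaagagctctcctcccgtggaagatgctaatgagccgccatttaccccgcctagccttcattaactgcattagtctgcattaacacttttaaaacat
peak1921, chr9:61059503-61059802: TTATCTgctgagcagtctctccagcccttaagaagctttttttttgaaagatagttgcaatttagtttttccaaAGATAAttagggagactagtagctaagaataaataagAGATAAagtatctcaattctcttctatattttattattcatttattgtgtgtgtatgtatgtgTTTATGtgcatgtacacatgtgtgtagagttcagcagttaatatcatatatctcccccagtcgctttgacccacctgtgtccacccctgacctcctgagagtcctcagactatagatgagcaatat
peak1923, chr9:61200363-61200662: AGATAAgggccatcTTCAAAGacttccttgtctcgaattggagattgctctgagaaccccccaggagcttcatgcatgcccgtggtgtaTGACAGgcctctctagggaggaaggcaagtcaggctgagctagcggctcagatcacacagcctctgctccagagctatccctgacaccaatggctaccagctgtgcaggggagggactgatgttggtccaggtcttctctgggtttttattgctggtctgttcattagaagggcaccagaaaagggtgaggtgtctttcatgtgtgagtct
peak1924, chr9:61249977-61250276: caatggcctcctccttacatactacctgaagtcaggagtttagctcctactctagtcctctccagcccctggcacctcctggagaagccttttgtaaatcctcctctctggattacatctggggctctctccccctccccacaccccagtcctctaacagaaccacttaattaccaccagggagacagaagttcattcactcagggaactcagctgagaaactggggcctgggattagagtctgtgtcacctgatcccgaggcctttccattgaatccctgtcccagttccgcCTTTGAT

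Both genes are transcribed from the plus strand. Uaca (ENSMUSG00000034485.10, chr9:60794542-60880370) lies first, and Tle3 (ENSMUSG00000032280.16, chr9:61372366-61418497) follows 492 kb beyond its end. No other protein-coding gene lies in that interval, and the annotation places 11 long intergenic noncoding RNA (lincRNA) genes in it. The Uaca domain was 654 kb long and the Tle3 domain 1118 kb long, compared with a median of 90.2 kb over all genes, and 573 kb belonged to both. Because the domains overlap in this way, each of the 6 peaks between the genes was counted once for Uaca and once for Tle3.

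Of 21911 protein-coding genes, 4978 (22.7%) had at least 1 peak, and 5 (0.0228%) had 7 or more peaks. These 5 were Tle3, Uaca, Bmp4, Cdkn3 and Tpm1, and no gene had more than 7. Just below them were 6 genes with 6 peaks, Thsd4, Tln2, Ier5, Sdk2, Cul1 and Auts2. When peaks were expressed per length of domain the order changed. Uaca had 10.7 peaks per Mb of domain, rank 1533 of all genes, and Tle3 had 6.26 peaks per Mb, rank 2417, close to the median of 6.05 per Mb over the genes with a peak. Long domains were not always occupied, since 1046 of the 1848 genes with a domain at least as long as that of Uaca had no peak. The plot of peaks against domain length shows both aspects.

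**Figure D1:**
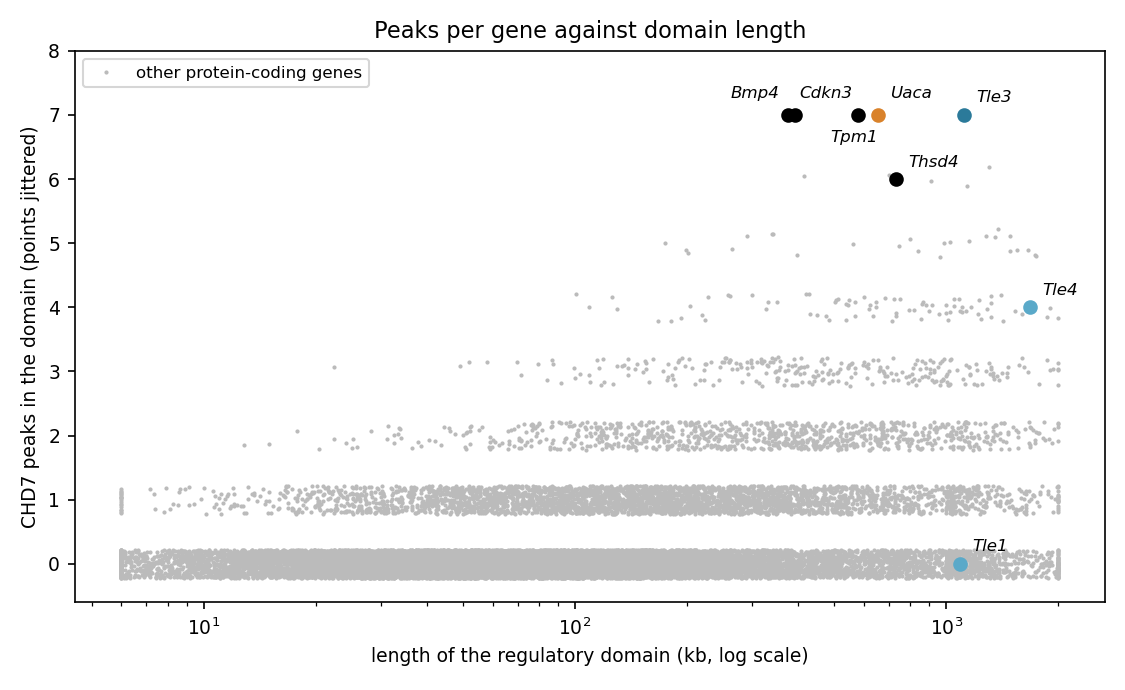
Number of CHD7 peaks in the regulatory domain of each protein-coding gene (vertical axis, grey points jittered) against the length of the domain in kb (horizontal axis, log scale). Tle3 and Uaca share the highest count of 7 with Bmp4, Cdkn3 and Tpm1 but have longer domains than these 3 genes, and Tle1, with a domain of 1089 kb, has no peak.

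The peaks fell into an upstream peak, a run of 6 in the intergenic interval, and a peak beyond Tle3. Peak1918 (chr9:60786978-60788467) was 1490 bp wide and centred 6.83 kb upstream of the Uaca TSS. It lay outside the Tle3 domain and was shared with Larp6, which encodes an RNA-binding protein of the La-related family. This was the only one of the 8 within 100 kb of a TSS of either gene.

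The first pair of the run lay closest together. Peak1919 (chr9:60987740-60988159, 420 bp) was 193 kb downstream of the Uaca TSS and 385 kb upstream of that of Tle3. Peak1920 (chr9:60998933-60999493, 561 bp) was 205 kb from the Uaca TSS and 374 kb from that of Tle3. Their midpoints were 11.3 kb apart, the shortest step in the run.

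The middle of the run held a narrow peak with a broader peak on either side. Peak1921 (chr9:61059283-61060624, 1342 bp) was 265 kb downstream of the Uaca TSS and 313 kb upstream of that of Tle3, and it began 167 bp after the 3′ end of the lincRNA gene Gm33699. Peak1922 (chr9:61158303-61158915, 613 bp) was 215 kb upstream of Tle3 and was the first that lay nearer to Tle3 than to Uaca. Peak1923 (chr9:61199936-61201542), the broadest at 1607 bp, was 173 kb upstream of Tle3.

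Peak1924 (chr9:61249813-61250298, 486 bp) was 123 kb upstream of the Tle3 TSS and was the nearest peak to it. Peak1925 (chr9:61561456-61561889, 434 bp) lay 188 kb downstream of the Tle3 TSS, beyond the 3′ end of the gene. It was shared with Rplp1, which encodes an acidic protein of the large ribosomal subunit. Neither gene thus had a peak in its own basal interval, and none of the 8 peaks overlapped an annotated gene of any kind.

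**Figure D2:**
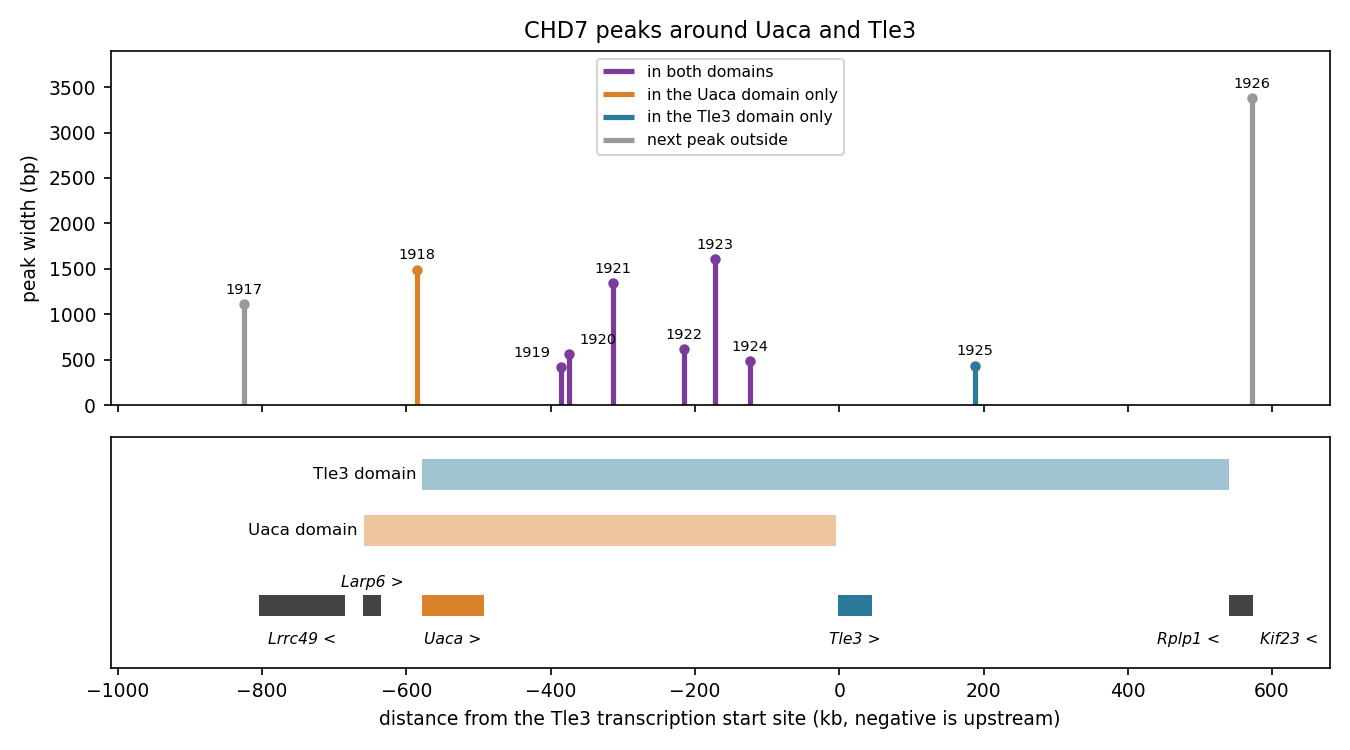
Upper panel, width in bp of each CHD7 peak (vertical axis) at its distance from the Tle3 TSS in kb (horizontal axis), coloured by domain, with the last 4 digits of the peak name. Lower panel, regulatory domains of Uaca and Tle3 and the protein-coding genes, with arrowheads for the direction of transcription. The 6 purple peaks between the genes belong to both domains, and the broad grey peak at the right, 3377 bp wide, lies beyond the Tle3 domain.

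The outer borders of the combined domains were not close to any counted peak. On the left, the nearest peak outside was peak1917 (1112 bp), 166 kb beyond the edge of the Uaca domain and 247 kb upstream of its TSS. On the right, it was peak1926 (3377 bp), whose midpoint lay 32.0 kb beyond the edge of the Tle3 domain and 1.24 kb downstream of the TSS of Kif23, which encodes a kinesin of cytokinesis. The first peak inside was 73.7 kb from the left edge and the last 352 kb from the right edge. Within this span, the left border of the Tle3 domain lay 1 kb downstream of the Uaca TSS. The counted peak nearest to that border was peak1918, centred 6.83 kb upstream of the same TSS and so outside the Tle3 domain.

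The genes next to the pair had fewer peaks. Per Mb of domain all were below Uaca (10.7), but only Rplp1 was below Tle3 (6.26). Larp6 had 1 peak, which is peak1918, in a domain of 96.4 kb (10.4 per Mb). Rplp1 had 2 peaks, which are peak1925 and peak1926, in 571 kb (3.50 per Mb). Kif23 had 1 peak, which is peak1926, in 106 kb (9.41 per Mb). Further to the left, Lrrc49, which encodes a leucine-rich repeat protein, had 5 peaks, or 8.90 per Mb, and its neighbour Thsd4 had 6 peaks, or 8.20 per Mb. The 5 peaks of Lrrc49 also lay in the Thsd4 domain and were counted for both genes. None of these peaks was shared with Uaca or Tle3.

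The 6 shared peaks lay within 262 kb from the first midpoint to the last, with a median step of 49.3 kb and a longest step of 98.7 kb. The median step between neighbouring peaks of the whole list was 276 kb. Among all 3660 runs of 6 consecutive peaks on a chromosome, 9 runs (0.246%) were shorter, and the median run covered 2118 kb. These runs overlap each other and the locus was selected for its peaks, so the position in this order is a description. The run began 108 kb after the end of Uaca and ended 123 kb before the Tle3 TSS, so it left both ends of the interval free of peaks.

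The widths of the 8 peaks formed a narrow and a broad group. Of these peaks, 5 were between 420 and 613 bp, below the median of 703 bp of the list, and 3 were between 1342 and 1607 bp, above its upper quartile of 1053 bp. Peak1923 was the broadest, with 92.4% of all peaks narrower, and peak1919 the narrowest, with 6.25% narrower. The broad peaks were not neighbours, since narrow peaks lay between each of them.

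G and C made up between 39.5% (peak1919) and 54.0% (peak1920) of the bases, with a median of 48.7% compared with 47.5% over the list. In CpG density the 8 peaks had a median of 9.39 per kb, compared with 11.5 per kb over the list. Peak1918 was the lowest with 4.70 CpG per kb and peak1922 the highest with 19.6 CpG per kb. By comparison, peak1926 at the Kif23 promoter had 29.9 CpG per kb. The share of repeat-masked bases ranged from 4.99% in peak1920 to 45.8% in peak1921, which was the only one with more than 26.0% masked.

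**Figure D3:**
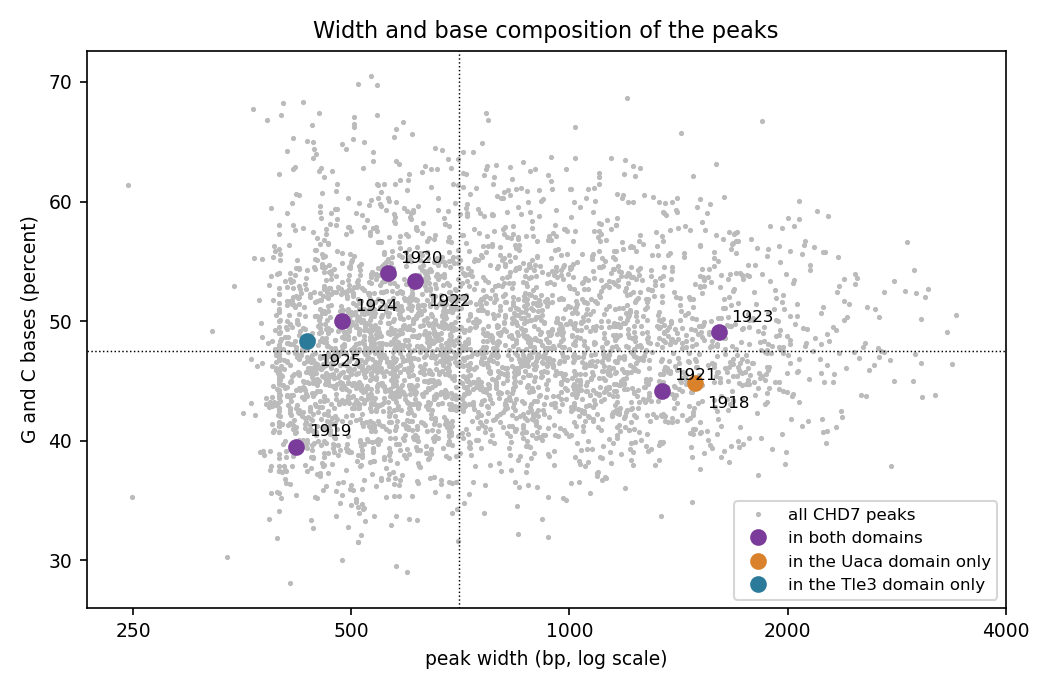
Share of G and C bases in percent (vertical axis) against peak width in bp (horizontal axis, log scale) for all CHD7 peaks in grey and the 8 peaks of the locus in colour, with the medians of the list as dotted lines. The 3 broad peaks (1342 to 1607 bp) are separated in width from the 5 narrow peaks (420 to 613 bp), and the G and C shares of the 8 peaks lie on both sides of the median.

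Motifs were searched as plain letters on both strands of the whole peak, so a match is a stretch of sequence and not a measured binding site. In addition to GATA, TCF/LEF, caudal and MEIS, the search covered SP/KLF (GGGCGG), T-box (GGTGTGA), ISL1 (CTAATTG or CTAATGG), CTCF (AGGGGGC or AGGTGGC), TEAD (CATTCCA) and AP-1 (TGANTCA), which makes 10 motifs. The 8 peaks held 25 matches, and none overlapped another. Per length this was 3.60 matches per kb compared with 4.33 per kb over all peaks.

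GATA, the motif of the zinc finger factors GATA4, GATA5 and GATA6 in cardiac progenitors, was found in 4 of the 8 peaks and in 36.8% of all peaks. Its density was 1.44 per kb in the locus and 0.641 per kb over all peaks. Matches were concentrated in peak1918 and peak1921, with 4 each, while peak1919 and peak1923 had 1 each. Since broad peaks offer more letters, the 3 broad peaks of the locus, which all had a match, are better set beside the 53.9% of all peaks over 1 kb that had a match. Of the 5 narrow peaks 1 had a match, compared with 30.1% of all peaks up to 1 kb.

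TCF/LEF, the motif of the factors through which TLE proteins act on WNT target genes, was found in 3 of the 8 peaks (29.9% of all peaks). Peak1923 had 2 matches, and peak1919 and peak1924 had 1 each. In peak1919 the GATA match and the TCF/LEF match, separated by 33 bases, both lay within 50 bp of the midpoint. In peak1923 the GATA match and a TCF/LEF match were 8 bases apart, to the left of the midpoint, and the other TCF/LEF match was 209 bases from the same GATA match. The share of all peaks with such pairs is not given here, so these spacings are a description. All 3 peaks with a TCF/LEF match lay in the run between the genes, which held 6 of the 8 peaks.

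The AP-1 motif of FOS and JUN dimers was found in 3 peaks (23.1% of all peaks), peak1918, peak1920 and peak1923, with 1 match each. The MEIS motif of TALE homeodomain factors was also found in 3 peaks (47.7% of all peaks), with 2 matches in peak1925 and 1 each in peak1921 and peak1923. The CTCF letters were present in peak1920 and peak1923 (26.8% of all peaks), SP/KLF in peak1918 alone (23.4%) and the caudal motif in peak1921 alone (35.8%). No match was found for T-box (12.5% of all peaks), ISL1 (13.4%) or TEAD (14.6%). Peak1922 held none of the 10 motifs and peak1923 held 5 of them, so none of the 10 was common to all 8 peaks. Other motifs were not searched.

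**Figure D4:**
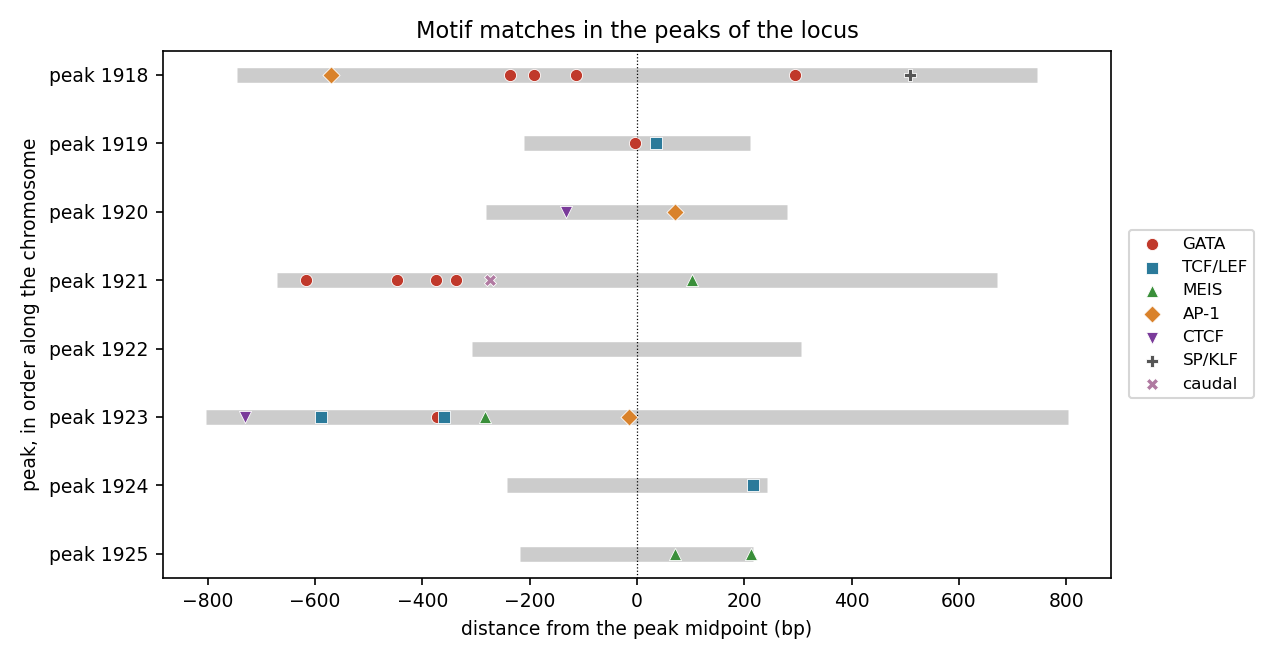
Positions of motif matches (coloured symbols) in the 8 peaks of the locus, drawn as grey bars to scale and ordered along the chromosome, with the distance from the peak midpoint in bp on the horizontal axis. GATA matches stand 4 each in peak1918 and peak1921, TCF/LEF matches are in peak1919, peak1923 and peak1924, and peak1922 has no match.

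An enhancer with activity tested in transgenic animals was available for comparison in the RefSeq annotation. Of 1015 such elements on the chromosomes analysed, 1 lay in the domains, VISTA enhancer mm29 (chr9:61600844-61603666), which is listed as active in forebrain, limb, trigeminal ganglion, nose and facial mesenchyme. It was centred 229 kb downstream of the Tle3 TSS, and the nearest peak, peak1925, ended 39.0 kb before it. None of the 8 peaks overlapped such an element, and neither did most others, with 24 overlapping (0.638%) in the whole list.

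Within the TLE family, 3 of 6 genes had a peak, but Tle3 was selected for its peaks. Of the other 5 members, 2 had a peak (40.0%, Wilson 95% confidence interval 11.8 to 76.9%, counting error only), and the 22.7% of all genes lies within that interval. With 5 genes the interval shows neither a difference from all genes nor its absence. Tle4, a full-length corepressor like Tle3, had 4 peaks in a domain of 1684 kb, or 2.38 per Mb, the nearest 9.90 kb from its TSS. Tle5 (Aes in the annotation), a short family member that lacks the repression domains at the C-terminal end, had 1 peak at 4.33 kb. Tle1 had no peak in a domain of 1089 kb, about as long as that of Tle3, and Tle2 and Tle6, in domains of 39.4 and 29.4 kb, also had none. Whether these genes differ in occupancy could not be tested with a single pooled list.

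Among 21 genes that encode transcription factors known to recruit TLE proteins, 8 had a peak (38.1%, 20.8 to 59.1%), and the 22.7% of all genes lies within that interval. Their median domain of 340 kb was longer than the 90.2 kb of all genes, and domain length was not adjusted for. The interval therefore shows neither a difference from all genes nor its absence. Tcf7l2, which encodes a TCF/LEF factor, had the most with 5 peaks, the nearest 112 kb from its TSS. Runx1, a regulator of definitive haematopoiesis, and Pax5, a B-cell factor, had 4 peaks each, and Hes1, a NOTCH target, had 3. Runx2 and Six3 had 2 each, and Tcf7 and Lef1 had 1 each. For Tcf7 the peak lay 1.74 kb from the TSS. Per Mb of domain the order changed, with Pax5 highest (8.89), then Tcf7 (8.15) and Tcf7l2 (5.20). The others with a peak lay between 1.87 (Lef1) and 4.37 (Hes1) per Mb.

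Of 5 genes whose products have been connected with UACA or the apoptosome, 2 had a peak (40.0%, 11.8 to 76.9%), and the 22.7% of all genes lies within that interval. Their median domain was 208 kb, and domain length was not adjusted for here either. This interval too shows neither a difference from all genes nor its absence. The 2 with a peak were Apaf1, the scaffold of the apoptosome, with 1 peak at 88.5 kb, and Pawr, a pro-apoptotic protein, with 1 peak at 9.94 kb. Casp9, Cycs and Lgals3 had none.

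The locus was compared with the other neighbours that had 7 peaks. Bmp4, which encodes a signalling ligand, and Cdkn3, a cell-cycle phosphatase, shared all 7 of their peaks, which lay between the genes, whereas Uaca and Tle3 shared 6 of 8. The peaks of Bmp4 and Cdkn3 spanned 211 kb, compared with 774 kb for the 8 peaks of Uaca and Tle3 and 262 kb for the 6 that these shared. Distance to the nearer of the 2 TSSs had a median of 121 kb at Bmp4 and Cdkn3 and of 191 kb at Uaca and Tle3. The 2 TSSs themselves lay 370 kb apart at the first pair and 579 kb apart at the second. These medians were not adjusted for that difference. Median widths were 602 and 587 bp. At both pairs 0 peaks lay inside a protein-coding gene, while at Tpm1, which encodes a tropomyosin, and its neighbour Tln2, which encodes a talin, 4 of 8 peaks did. In density, Bmp4 and Cdkn3 had 18.7 and 17.9 peaks per Mb, higher than the 10.7 of Uaca and the 6.26 of Tle3.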

How the data were processed

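CUT&RUN reads of 3 anti-CHD7, 3 IgG and 3 input libraries were trimmed by the authors with fastp 0.20.1, aligned to mm10 with bwa 0.7.17.4, deduplicated by unique molecular identifiers and used to call peaks per sample with MACS2 2.1.2 against IgG. The deposited values are positions in bp in 1 list of peaks that overlapped between replicates. The calling threshold and the joining of peaks are not given in the sources used here, and reads, IgG and input were not analysed here, so depth is unknown and precision is limited by how many peaks were listed. Starts were read as counted from 0 and are printed from 1.

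Genes came from GENCODE M21 and sequence from GRCm38.p6, the assembly of mm10, on which all peaks lay within the chromosome ends. For each gene 1 protein-coding transcript was taken, by APPRIS level and then length. Domains, counts and motif searches were checked on simulated data. No test was made, because the list has no replicate values and the genes were selected by their peaks. Members, gene lists and motifs were chosen with earlier results of these data known. Named genes were Tle3, Uaca, their neighbours, genes sharing their peaks, the TLE family, members of the partner lists with a peak, genes with as many peaks as Tle3, and Bmp4 and Cdkn3. Genes with 6 peaks, Tln2 and list members without a peak were named in addition, after their values were seen. Of the UACA partners first listed, 1 gene is not reported here and is not in the count of 5. Alternatives were other TSSs, association rules, peak lists and motif windows. Python 3.11.15, numpy 2.4.6, pandas 2.3.3, scipy 1.17.1 and matplotlib 3.10.9 were used.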

Additional observations from a re-analysis of the deposited data

How the results depend on the processing

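With an extension of at most 500 kb, with any overlap in place of the midpoint and with peaks less than 1 kb apart merged, Tle3 and Uaca each had a count of 7 peaks and rank 1. With the outermost start site of each gene both still counted 7 peaks but ranked 2, a place shared by 5 genes. In the basal domain alone both had 0 peaks and rank 695, the last place, shared by 21217 genes, and 1 TLE family gene, Tle5, had a peak. Each peak given to the single nearest start site left 4 peaks for Tle3 and 4 for Uaca, both at rank 8 among 21 tied genes, because no peak was then counted more than once. With the peaks wider than the median, Tle3 had 2 peaks and rank 77 (372 genes tied) and Uaca 3 peaks and rank 13 (64 genes tied). Within 200 bp around the midpoint, a shorter sequence than the whole peak, GATA, TCF/LEF and MEIS matches were found in 1 locus peak each (11.8%, 8.56% and 15.3% of all peaks in that window), SP/KLF, caudal and CTCF matches in 0 (8.69%, 9.12% and 8.0%) and AP-1 matches in 2 (6.65%). No paired analysis was possible because the deposited list has no values per library, and for the same reason no replicate could be left out. Depth, peak strength and the IgG background at the locus are unknown, and an association by position does not show that a peak acts on either gene.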
